A study of Mus musculus with 4 samples.

Results

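The genes described here are the forkhead transcription factor genes of the mouse other than Foxa1, Foxa2, Foxa3 and Foxj1. They were taken by symbol, as every autosomal protein-coding gene named Fox with a letter from a to s and a number, which gave 37 of 20665 autosomal protein-coding genes. Foxo4, Foxp3 and Foxr2 lie on the X chromosome and were left out. Each open region touching one of these gene bodies or its 10 kb flanks was assigned to that gene, which gave 156 of 60713 autosomal open regions. No region was shared by 2 of the 37 genes. Of the 156 regions, 14 lie also within 2 kb of an end of another gene, and the 2 genes cannot be told apart there. They are at 8 members, Foxj3, Foxk1, Foxm1, Foxf1, Foxc2, Foxn1, Foxn3 and Foxh1.

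Forkhead factors bind DNA through a winged-helix domain, and several can open or mark closed chromatin for other factors. In the lung, FOXF1 and its relatives act in the mesenchyme and the vessels, and FOXP factors repress genes in the airway and alveolar epithelium. FOXO factors are held out of the nucleus when AKT phosphorylates them downstream of insulin and growth factor signalling, and FOXM1 drives the genes of mitosis.

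Lung tumours were studied by ATAC-seq, in which a transposase cuts accessible DNA and inserts sequencing adapters there. KrasLA1/+;Dicer1S2D/+ tumours, called Dicer1S2D tumours here, were compared with KrasLA1/+ tumours, with 2 libraries in each group. KrasLA1 is a latent allele that recombines spontaneously into an active form and gives mice lung tumours, and all 4 mice carried it. Dicer1S2D is an allele of Dicer1, the enzyme that cuts microRNA precursors, whose product imitates a phosphorylated form. Mice were of the strain labelled C57B6J and 55 weeks old, and in each group replicate 1 was female and replicate 2 male. The deposited data give the position of each peak, with no height or read count, so a region is either called or not called in a library. Each library is called a tumour here, although the number of tumours in a sample is not stated, and fewer cells of a type and less open chromatin per cell cannot be told apart in such bulk tissue.

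The number of peaks differed most between the Dicer1S2D libraries. There were 50282 peaks in the female and 34767 in the male Dicer1S2D tumour, and 41621 in the female and 44654 in the male KrasLA1 tumour. All 10 epithelial marker genes examined had a region open at a gene end in all 4 libraries. By the same measure fewer marker genes of stromal and immune cells were open, where 56.6% of all autosomal protein-coding genes were. They were 2 of 6 myeloid, 1 of 6 fibroblast and smooth muscle, 0 of 6 endothelial and 0 of 5 lymphocyte markers. Regions anywhere in the gene or within 10 kb are counted next. The 6 myeloid markers had 17 and 11 of 23 regions in female and male Dicer1S2D tumours, against 11 and 18 in female and male KrasLA1 tumours. Lymphocyte markers had 4 and 4 of 7 regions in female and male Dicer1S2D tumours, against 5 and 6 in female and male KrasLA1 tumours. Pecam1 and Tek of endothelium, Col1a1 and Acta2 of fibroblasts and smooth muscle, Spi1 and Cd68 of myeloid cells and Cd79a of B cells had regions in every library. Cdh5, Kdr and Tie1 of endothelium, Col1a2 and Tcf21 of fibroblasts, Adgre1 of macrophages and Cd3e of T cells had none in any library.

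Across the forkhead loci, the number of open regions differed more between the libraries of a group than between Dicer1S2D and KrasLA1 tumours. The female Dicer1S2D tumour had 123 and the male 97 of the 156 regions, against 102 in the female and 126 in the male KrasLA1 tumour. The mean was 110 ± 18.4 in Dicer1S2D tumours and 114 ± 17.0 in KrasLA1 tumours (SD, n = 2 each; exact two-sided permutation p = 0.667). With 2 libraries against 2 this test cannot give a p below 0.33. Among females the Dicer1S2D tumour had 21 more regions than the KrasLA1 tumour, and among males it had 29 fewer, so the pooled difference of -4 does not describe either sex. It became 9 without the male Dicer1S2D library and 8.5 without the male KrasLA1 library.

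Peaks covered 67.8 kb of the forkhead loci in the female and 56.1 kb in the male Dicer1S2D tumour, against 62.1 kb in the female and 85.6 kb in the male KrasLA1 tumour. The groups overlapped, with the male KrasLA1 tumour far above the other libraries. The difference between the group means was -11.9 kb (exact two-sided permutation p = 0.667), from a female difference of 5.67 kb and a male difference of -29.5 kb; without the male KrasLA1 library it was -142.5 bp. Of the forkhead regions, 78.8% were called in the female and 62.2% in the male Dicer1S2D tumour, against 65.4% in the female and 80.8% in the male KrasLA1 tumour. Over all autosomal regions the same shares were 78.8% and 54.9% in female and male Dicer1S2D tumours, and 66.0% and 71.8% in female and male KrasLA1 tumours.

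**Figure D1:**
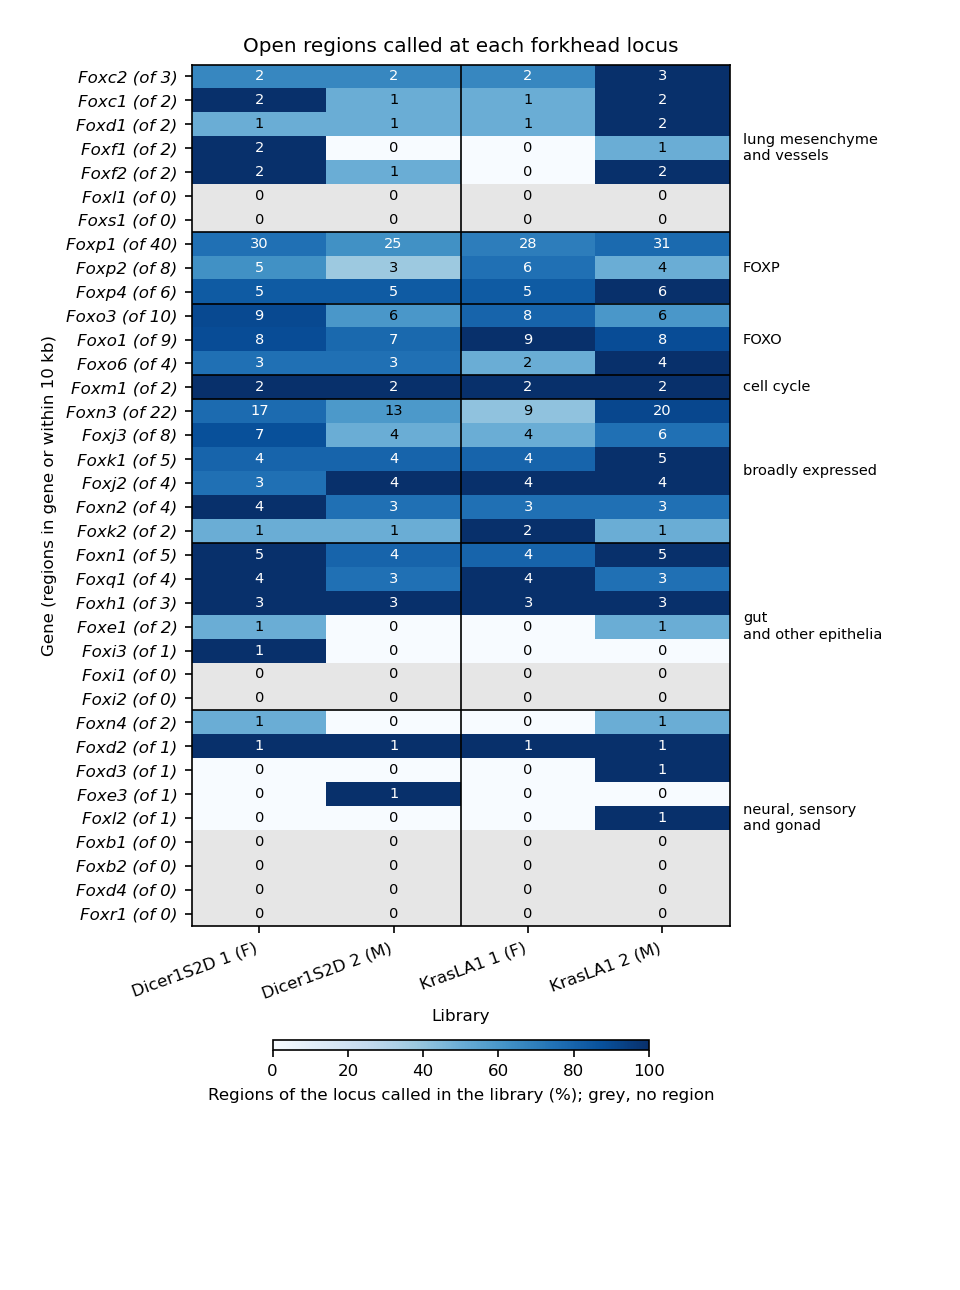
Number of open regions called at the named forkhead genes (rows, by role, with the number of regions of the locus) in each library (columns; F female, M male), with Dicer1S2D libraries to the left of KrasLA1 libraries; the shade gives the percentage of the locus's regions called, and grey marks genes with no region. Foxp1 stands out with 25 to 31 regions per library, and most genes differ as much between the libraries of a group as between the groups.

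No forkhead region was gained, meaning called in both Dicer1S2D tumours and neither KrasLA1 tumour, where 0.596% of all autosomal regions were. One, at Foxp1, was lost, meaning called in both KrasLA1 tumours and neither Dicer1S2D tumour; 1.42% of all autosomal regions were. Thus 0 of 156 and 1 of 156 forkhead regions separated the groups. In all 4 libraries, 77 of 156 (49.4%) were called. The same share was 43.5% over all autosomal regions and 46.9% over regions at autosomal protein-coding genes, chosen by the same 10 kb rule. Of the 28 forkhead genes with a region, 0 had a gained region and 1 had a lost one, against 1.78% gained and 4.87% lost across the autosomal protein-coding genes that have any region.

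The regions called in 1 library were mostly those of the libraries with the most called. The female Dicer1S2D tumour alone called 13 and the male alone 3, and the female KrasLA1 tumour alone called 6 and the male alone 19. No region was shared by both Dicer1S2D tumours alone. Regions found in few libraries were narrow: the median merged width was 238 bp for those called in 1 library, 381 bp in 2, 572 bp in 3 and 766 bp in all 4.

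**Figure D2:**
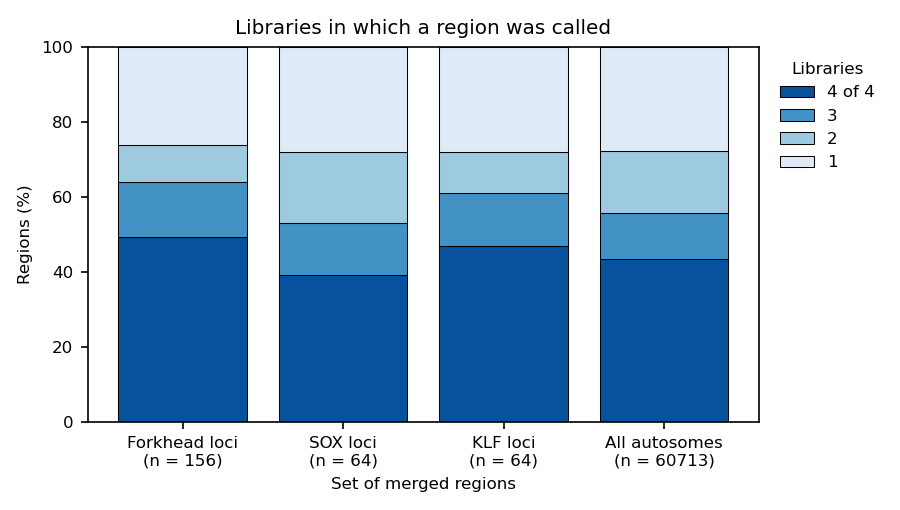
Share of regions (y axis, percent) called in 1, 2, 3 or all 4 libraries (shades, stacked) at the 156 forkhead regions, at SOX and KLF genes (64 each) and for all 60713 autosomal regions (bars). Regions called in all 4 libraries make up 49.4% of the forkhead and 43.5% of all regions. Over regions at all autosomal protein-coding genes, which are not drawn, the share is 46.9%.

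The sexes pointed opposite ways, at the forkhead loci as over all autosomal regions. Among females, 31 forkhead regions (19.9%) were called in the Dicer1S2D tumour and not in the KrasLA1 tumour, where 21.6% of all autosomal regions were. The other way round there were 10 (6.41%), against 8.81%. Among males, 5 (3.21%) were called in the Dicer1S2D tumour and not in the KrasLA1 tumour, against 3.97% of all autosomal regions. The other way round there were 34 (21.8%), against 20.9%. Each sex has 1 library per genotype, so these counts have no replicate.

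The 37 genes differed in whether an end or a listed start was open. The same region within 2 kb of a gene end or a RefSeq start was called in all 4 libraries for 16 genes (43.2%; 56.6% of all autosomal protein-coding genes). These were Foxo1, Foxo3, Foxo6, Foxp1, Foxp2, Foxp4, Foxm1, Foxk1, Foxk2, Foxj2, Foxj3, Foxn2, Foxn3, Foxd2, Foxh1 and Foxq1. For 10 genes, Foxf1, Foxf2, Foxc1, Foxc2, Foxd1, Foxd3, Foxe1, Foxe3, Foxi3 and Foxl2, such a region was called in 1 to 3 libraries. The remaining 11 had none.

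Of those 11, 9 had no region in the gene or within 10 kb in any library (24.3%; 23.1% of all autosomal protein-coding genes). Foxs1 marks pericytes, Foxl1 subepithelial mesenchyme of the gut, Foxi1 ionocytes of airway and kidney, and Foxb1 parts of the hypothalamus. Foxi2, Foxb2, Foxd4 and Foxr1 were also without a region. The absence of a call says only that no peak passed the caller's threshold, since the depth of the libraries is not known.

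Gene length went with this split. Of the 15 members of 10 kb or longer, 13 had an end open in all 4 libraries and 0 lacked a region, and the median gene had 5 regions. Among the 22 shorter members, 3 had an end open in all 4 libraries, namely Foxd2, Foxh1 and Foxq1, 9 lacked a region, and the median was 1 region. Over all autosomal genes, 65.7% of those of 10 kb or longer and 40.2% of shorter ones had an end open in all 4 libraries, and 13.3% and 41.1% had no region. Spearman's rho of region number with gene length was 0.76 over the 37 members, which is a description, since a longer gene has a larger window.

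The promoters show how differently these genes are built, so 6 are printed here, chosen to span the range from always open to never open and from many to few CG pairs. Each is the 250 bases before a RefSeq start in the promoter table of GRCm38.p6 (mm10 chromosomes), read 5′ to 3′ on the gene's strand, with CG pairs in capitals. Foxk2 (plus strand, chr11:121259737-121259986), Foxo1 (plus strand, chr3:52268087-52268336) and Foxn3 (minus strand, chr12:99450075-99450324) had a peak over this window in all 4 libraries. Foxc1 (plus strand, chr13:31806396-31806645) had one in 3 libraries, and Foxf2 (plus strand, chr13:31625566-31625815) and Foxi1 (minus strand, chr11:34208090-34208339) had none.
Foxk2: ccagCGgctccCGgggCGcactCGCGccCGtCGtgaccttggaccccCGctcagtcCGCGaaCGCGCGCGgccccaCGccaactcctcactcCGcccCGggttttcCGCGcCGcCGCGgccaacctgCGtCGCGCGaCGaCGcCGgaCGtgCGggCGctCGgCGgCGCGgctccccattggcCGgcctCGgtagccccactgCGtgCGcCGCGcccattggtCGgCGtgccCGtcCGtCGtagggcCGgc
Foxo1: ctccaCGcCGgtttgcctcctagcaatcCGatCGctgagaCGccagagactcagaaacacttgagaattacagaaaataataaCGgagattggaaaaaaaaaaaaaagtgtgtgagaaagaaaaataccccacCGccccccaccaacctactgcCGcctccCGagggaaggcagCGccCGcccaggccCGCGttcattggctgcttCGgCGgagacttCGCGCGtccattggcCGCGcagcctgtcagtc
Foxn3: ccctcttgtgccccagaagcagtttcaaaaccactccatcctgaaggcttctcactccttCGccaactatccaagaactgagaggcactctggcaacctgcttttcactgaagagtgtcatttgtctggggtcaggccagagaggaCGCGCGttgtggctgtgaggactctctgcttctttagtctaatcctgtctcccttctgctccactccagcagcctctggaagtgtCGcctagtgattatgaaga
Foxc1: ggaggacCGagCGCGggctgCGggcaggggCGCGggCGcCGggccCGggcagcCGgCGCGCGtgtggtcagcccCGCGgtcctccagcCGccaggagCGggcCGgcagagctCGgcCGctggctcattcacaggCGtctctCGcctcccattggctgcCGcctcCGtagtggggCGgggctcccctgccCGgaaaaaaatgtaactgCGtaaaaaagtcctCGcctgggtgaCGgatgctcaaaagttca
Foxf2: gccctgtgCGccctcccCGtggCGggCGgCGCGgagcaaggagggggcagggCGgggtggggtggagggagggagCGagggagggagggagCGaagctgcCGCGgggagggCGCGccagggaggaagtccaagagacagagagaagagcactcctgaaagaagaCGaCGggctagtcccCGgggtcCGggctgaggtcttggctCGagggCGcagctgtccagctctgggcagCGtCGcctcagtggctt
Foxi1: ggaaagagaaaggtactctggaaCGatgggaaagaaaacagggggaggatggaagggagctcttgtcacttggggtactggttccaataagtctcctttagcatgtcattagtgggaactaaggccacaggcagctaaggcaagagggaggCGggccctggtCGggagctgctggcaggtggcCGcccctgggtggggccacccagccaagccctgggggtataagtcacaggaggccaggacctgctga

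Foxk2 holds 48 CG pairs, the most among the 23 members with a listed promoter, Foxc1 holds 29, Foxf2 21 and Foxo1 20. Foxn3 holds 5 and Foxi1 4, although the Foxn3 window was open in every library. The listed Foxn3 start lies within the gene body, and the outer end of the gene was open in the male KrasLA1 tumour alone. Because the printed promoters were picked to span both ranges, they cannot show how well CG pairs sort open from closed forkhead promoters.

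Promoters were found for 23 of the 37 members, 25 in all because Foxp1 has 3. A peak covered 11 of them in all 4 libraries (44%, against 46.6% of 20085 promoters of all genes), 3 in 1 to 3 libraries and 11 in none. The median number of CG pairs was 27 for promoters open in all 4 libraries, 24 for those open in some and 12 for those open in none, against 18, 9 and 3 for all genes. Forkhead promoters thus held more CG pairs at the median than promoters at large, whether open in all 4 libraries, in some or in none. Among the 11 closed ones, Foxl2 held 22, Foxf2 and Foxd3 21 each, and Foxn4 17. The forkhead core motif TGTTTAC, searched on both strands and so also as GTAAACA, was in 0 of the 25 windows and in 2.64% of all promoters of the same length; this says only that these letters are not there.

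**Figure D3:**
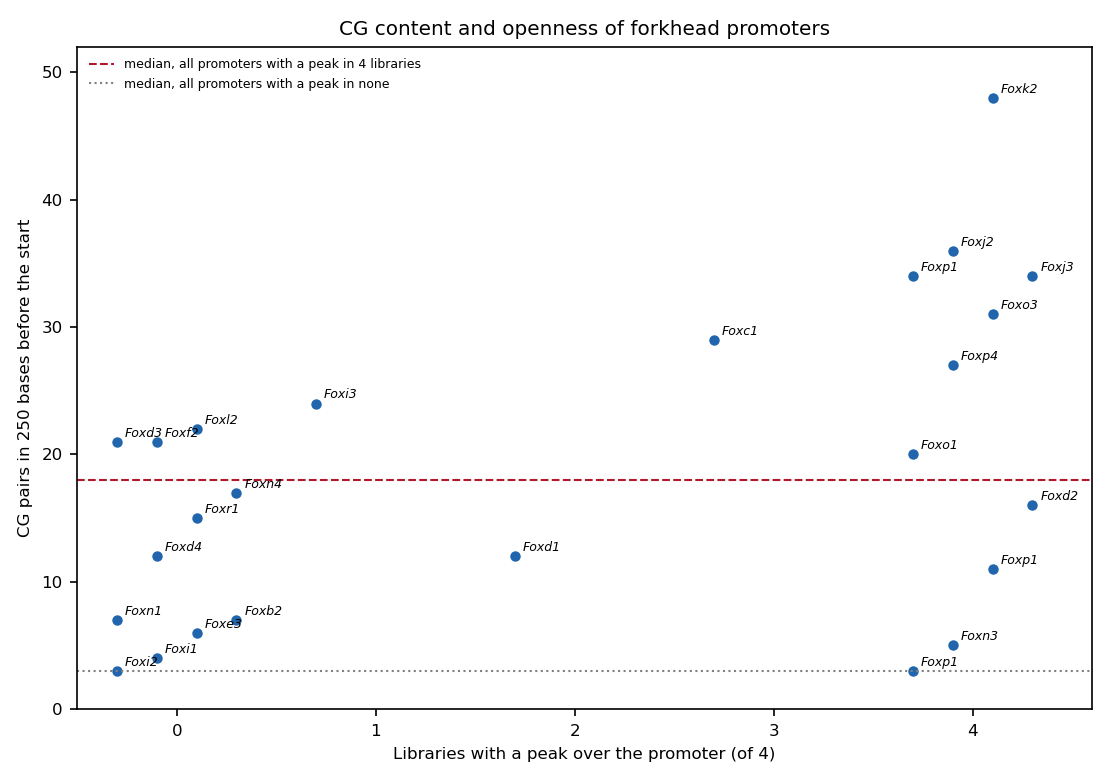
CG pairs in the 250 bases before the start (y axis) against the number of libraries with a peak over that window (x axis, points set side by side within a value), 1 point per forkhead promoter. Horizontal lines mark the medians of all promoters with a peak in 4 libraries, 18 pairs, and in none, 3 pairs; Foxn3 and 1 Foxp1 start are open with 5 and 3 pairs, and Foxl2, Foxf2 and Foxd3 are closed with 21 or 22.

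The mesenchymal and vascular factors were unevenly open. Foxf1, Foxf2, Foxc1, Foxc2, Foxd1, Foxs1 and Foxl1 had 11 regions, of which 9 were called in the female and 5 in the male Dicer1S2D tumour, against 4 in the female and 10 in the male KrasLA1 tumour. None of the 7 had an end open in all 4 libraries. All 7 are shorter than 10 kb, a class in which 3 of 22 forkhead genes and 40.2% of all autosomal genes had such an end. Of the 11 regions 2 (18.2%), both beside Foxc2, were called in all 4, against 46.9% of regions at autosomal protein-coding genes. The groups overlapped, with the female Dicer1S2D and the male KrasLA1 tumour high.

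Foxf1, which patterns the lung mesenchyme and its capillaries, had a region next to one gene end (chr8:121083458-121083984). Its peaks covered 234 bp in the female and 0 bp in the male Dicer1S2D tumour, against 0 bp in the female and 527 bp in the male KrasLA1 tumour. It was open in 1 tumour of each genotype. The other Foxf1 region (chr8:121092686-121092910), called in the female Dicer1S2D tumour alone, lies also within 2 kb of an end of Mthfsd.

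Foxf2, a partner of Foxf1 in mesenchyme, had a region inside the gene near its 3′ end (chr13:31629315-31629908). There the peaks covered 489 bp and 242 bp in female and male Dicer1S2D tumours, against 0 bp and 594 bp in female and male KrasLA1 tumours. The start region of Foxc1, which acts in vessels and the eye (chr13:31806256-31806777), had 437 bp and 297 bp in female and male Dicer1S2D tumours, against 0 bp and 463 bp in female and male KrasLA1 tumours. Both were open in 3 tumours and missing from the female KrasLA1 tumour.

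Foxd1, a gene of stromal progenitors and pericytes, had a start region (chr13:98354190-98354801) of 0 bp and 257 bp in female and male Dicer1S2D tumours, against 399 bp and 612 bp in female and male KrasLA1 tumours. A second region inside Foxd1 (chr13:98355023-98355926) had 702 bp and 0 bp in female and male Dicer1S2D tumours, against 0 bp and 882 bp in female and male KrasLA1 tumours. The start region was missing from the female Dicer1S2D tumour alone, which called the second region, and the male KrasLA1 tumour called both. Foxc2, a factor of lymphatic vessels and valves, was open at its own end over 389 bp in the male KrasLA1 tumour and in no other, while its flanks carried the 2 regions shared by all 4 libraries, one of them within 2 kb of an end of Mthfsd.

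Markers of the cells that express these factors moved among the libraries too. The 6 fibroblast and smooth muscle markers had 8 and 5 regions in female and male Dicer1S2D tumours, against 8 and 7 in female and male KrasLA1 tumours, of 13. The 6 endothelial markers had 11 and 9 of 13 in female and male Dicer1S2D tumours, against 11 and 12 in female and male KrasLA1 tumours. Their part in the mesenchymal forkhead calls was not tested.

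Of the genomic clusters, Foxf1, Foxc2 and Foxl1 lie within 66.3 kb on chromosome 8, with 4 and 2 of 5 regions called in female and male Dicer1S2D tumours, against 2 and 4 in female and male KrasLA1 tumours. Foxq1, Foxf2 and Foxc1 lie within 272 kb on chromosome 13, with 10 and 6 of 10 regions in female and male Dicer1S2D tumours, against 7 and 8 in female and male KrasLA1 tumours. The 4 regions of the chromosome 13 cluster that were open in all libraries were 3 at or within 10 kb of Foxq1 and 1 lying 17438 bp from it.

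**Figure D4:**
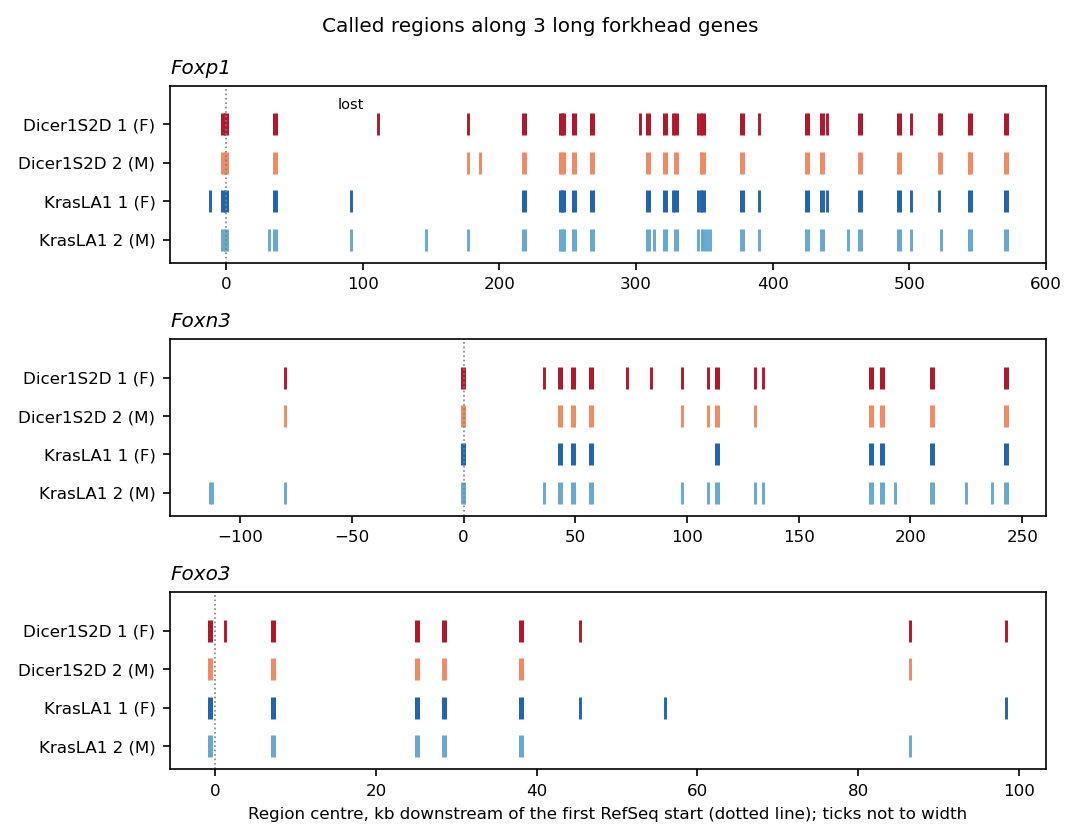
Regions called in each library (rows, Dicer1S2D libraries above KrasLA1 libraries; F female, M male) along Foxp1, Foxn3 and Foxo3, as ticks at the region centre in kb downstream of the first RefSeq start (x axis); thicker ticks are regions called in all 4 libraries. The lost Foxp1 region, at 91.26 kb, has no tick in either Dicer1S2D row and a tick in both KrasLA1 rows.

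The FOXP repressors carried 54 of the 156 forkhead regions. At Foxp1, Foxp2 and Foxp4 together, 40 and 33 were called in female and male Dicer1S2D tumours, against 39 and 41 in female and male KrasLA1 tumours. All 3 of these genes had an end or start open in every library, as did 65.7% of all autosomal genes of 10 kb or longer, their length class. Of the regions, 27 (50%) were called in all 4, against 46.9% of regions at autosomal protein-coding genes.

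Foxp1 spans 597405 bp (chr6:98925342-99522746, minus strand) and had 40 regions, the most of any member. It had 30 and 25 of them in female and male Dicer1S2D tumours, against 28 and 31 in female and male KrasLA1 tumours. Each of its 3 listed starts was open in all 4 libraries. The lost region (chr6:99429479-99429979, 501 bp) lies in the gene body 91.26 kb downstream of the first start; the gene table has no exons, so exon or intron is not annotated. No peak was called there in either Dicer1S2D tumour, against peaks of 436 bp and 424 bp in female and male KrasLA1 tumours. It is the one forkhead region that separated the groups.

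Foxp2, like Foxp1 a repressor in airway epithelium, had 8 regions, with 5 and 3 called in female and male Dicer1S2D tumours, against 6 and 4 in female and male KrasLA1 tumours. The end region (chr6:14900040-14901858) was open in all 4. Foxp4 had 5 of 6 in each Dicer1S2D tumour, against 5 in the female and 6 in the male KrasLA1 tumour, and 5 of the 6 were open in every library.

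The FOXO genes, whose products AKT restrains, were open in every library. Each had an end open in all 4, as did 65.7% of all autosomal genes of 10 kb or longer, their length class. Foxo1, Foxo3 and Foxo6 had 23 regions, of which 20 and 16 were called in female and male Dicer1S2D tumours, against 19 and 18 in female and male KrasLA1 tumours. Of these regions, 13 (56.5%) were open in all 4, against 46.9% of regions at autosomal protein-coding genes. Foxo1 had 8 and 7 of 9 in female and male Dicer1S2D tumours, against 9 and 8 in female and male KrasLA1 tumours. Foxo3 had 9 and 6 of 10 in female and male Dicer1S2D tumours, against 8 and 6 in female and male KrasLA1 tumours, and its start region was 2312 bp wide, the widest of any member after that of Foxq1. Foxo6, best known from the brain, had 3 of 4 in each Dicer1S2D tumour, against 2 in the female and 4 in the male KrasLA1 tumour.

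At the Foxo1 start (chr3:52267550-52269382) the peaks were narrower in both Dicer1S2D tumours. They covered 1294 bp and 1367 bp in female and male Dicer1S2D tumours, against 1686 bp and 1785 bp in female and male KrasLA1 tumours. The groups did not overlap, which 27.2% of all regions open in all 4 libraries showed in this direction.

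Genes around AKT and FOXO were examined with them. The 23 genes of the AKT pathway and of FOXO targets had 98 regions, with 75 and 63 called in female and male Dicer1S2D tumours, against 61 and 86 in female and male KrasLA1 tumours. Of the 23, 21 had an end open in all 4 libraries (56.6% of all genes), 0 had a gained region (1.78% of all genes with a region), and 2 had a lost one (4.87%), Pik3ca, a catalytic subunit of PI3-kinase, and Akt1.

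Foxm1, the driver of mitotic genes, had 2 of 2 regions in every library. The end region (chr6:128362162-128363000) lies also within 2 kb of an end of Rhno1. The flank region (chr6:128355375-128356200) lies also within 2 kb of an end of Tulp3 or Rhno1. At neither region can Foxm1 and its neighbours be told apart. Of 11 FOXM1 targets and partners all 11 had an end open in all 4 libraries (56.6% of all genes), and 27 and 22 of their 29 regions were called in female and male Dicer1S2D tumours, against 25 and 27 in female and male KrasLA1 tumours. None of those genes had a gained or lost region.

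The hedgehog pathway, which in the lung signals to mesenchyme that expresses Foxf1, had 26 and 22 of 44 regions in female and male Dicer1S2D tumours, against 27 and 38 in female and male KrasLA1 tumours. The groups did not overlap; the mean difference was -8.5 regions (exact two-sided permutation p = 0.33, the smallest possible), and -3 without the male KrasLA1 tumour, which stood apart. The female difference was -1 and the male difference -16. Of the 11 genes 7 had an end open in all 4 libraries, where 56.6% of all genes did. Gli1 and Gli3, transcription factors of the pathway, each had a lost region, as did 4.87% of all genes with a region. Hhip, a hedgehog antagonist, had 0 regions in each Dicer1S2D tumour, against 0 in the female and 2 in the male KrasLA1 tumour.

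The broadly expressed forkhead genes were open at an end or start in every library. All of them are longer than 10 kb, a class in which 65.7% of all autosomal genes were so. Foxk1, Foxk2, Foxj2, Foxj3, Foxn2 and Foxn3 had 45 regions, with 36 and 29 called in female and male Dicer1S2D tumours, against 26 and 39 in female and male KrasLA1 tumours. Of the regions, 23 (51.1%) were open in all 4, against 46.9% of regions at autosomal protein-coding genes. Foxk1, a repressor of autophagy genes with Foxk2, had 4 and 4 of 5 in female and male Dicer1S2D tumours, against 4 and 5 in female and male KrasLA1 tumours. Foxk2 had 1 of 2 in each Dicer1S2D tumour, against 2 in the female and 1 in the male KrasLA1 tumour.

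Foxn3, a repressor first found as a checkpoint suppressor, varied most in its number of regions. It had 17 and 13 of 22 regions in female and male Dicer1S2D tumours, against 9 and 20 in female and male KrasLA1 tumours. The KrasLA1 tumours lay below and above both Dicer1S2D tumours. Peaks covered 7580 bp and 6408 bp in female and male Dicer1S2D tumours, against 4623 bp and 11660 bp in female and male KrasLA1 tumours. Its listed start, within the gene body of the table, was open in all 4, and its outer end was open in the male KrasLA1 tumour alone. One Foxn3 region (chr12:99240018-99240632) was the single forkhead region with wider peaks in both Dicer1S2D tumours, 459 bp and 465 bp in female and male Dicer1S2D tumours, against 373 bp and 374 bp in female and male KrasLA1 tumours.

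Foxn2 had 4 and 3 of 4 regions in female and male Dicer1S2D tumours, against 3 in each KrasLA1 tumour, and Foxj2 had 3 and 4 of 4 in female and male Dicer1S2D tumours, against 4 in each KrasLA1 tumour. Foxj3 had 7 and 4 of 8 regions in female and male Dicer1S2D tumours, against 4 and 6 in female and male KrasLA1 tumours. The start region of Foxj2 (chr6:122819409-122820674) had narrower peaks in Dicer1S2D tumours, with 789 bp and 802 bp in females and males, against 1185 bp and 1210 bp in female and male KrasLA1 tumours. As at Foxo1, the groups did not overlap.

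Among factors of gut and other epithelia, Foxq1 had the widest region. Foxq1, a factor of mucous cells of the stomach, was covered along most of its length by a region of 2677 bp (chr13:31557426-31560102), the widest at any member. Its peaks covered 2348 bp and 2320 bp in female and male Dicer1S2D tumours, against 2405 bp and 2672 bp in female and male KrasLA1 tumours. Both Dicer1S2D values lay just under the KrasLA1 values. Counting its flanks, Foxq1 had 4 and 3 of 4 regions in female and male Dicer1S2D tumours, against 4 and 3 in female and male KrasLA1 tumours.

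Foxh1, a partner of SMADs in Nodal signalling, had 3 of 3 regions in every library, each of them within 2 kb of an end of Cyhr1, Kifc2 or Ppp1r16a. Foxn1, the factor of thymic epithelium and hair, was closed at its ends and had 5 and 4 of 5 regions in female and male Dicer1S2D tumours, against 4 and 5 in female and male KrasLA1 tumours, inside the gene or beside it. Its flank regions chr11:78347520-78348218 and chr11:78349767-78350120 lie also within 2 kb of an end of Unc119. Foxe1, a thyroid factor, had 1 and 0 regions in female and male Dicer1S2D tumours, against 0 and 1 in female and male KrasLA1 tumours. These were adjoining intervals beside a gene end, chr4:46342913-46343149 in the female Dicer1S2D tumour and chr4:46343151-46343412 in the male KrasLA1 tumour. Foxi3 had 1, in the female Dicer1S2D tumour.

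Factors of the nervous system, the senses and the gonads were mostly closed. The 10 members of that group had 6 regions, of which 2 and 2 were called in female and male Dicer1S2D tumours, against 1 and 4 in female and male KrasLA1 tumours. Foxd2 had its start open in every library. It was the 1 gene of the 10 with an end open in all 4, against 56.6% of all genes and 40.2% of those under 10 kb. Foxd3 of the neural crest and Foxl2 of the ovary each had 1 region, in the male KrasLA1 tumour, and Foxe3 of the lens had 1, in the male Dicer1S2D tumour. Foxn4, a retinal factor, had 1 in the female Dicer1S2D and 1 in the male KrasLA1 tumour, at different places.

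Peak widths at the 77 forkhead regions open in every library had medians of 608 bp and 515 bp in female and male Dicer1S2D tumours, against 550 bp and 696 bp in female and male KrasLA1 tumours. In 27 regions (35.1%; 27.2% of all regions open in all 4 libraries) both Dicer1S2D peaks were narrower than both KrasLA1 peaks, and in 1 (1.30%; 3.66% of all such regions) they were wider. Of the 19 Foxp1 regions open in all libraries, 8 were narrower and 0 wider in both Dicer1S2D tumours. Widths followed the library: the widest peak came from the male KrasLA1 tumour in 42 of the 77 regions (54.5%), as in 53.3% of all. Each width was then divided by the library's median over all autosomal regions open in all 4 libraries. These medians were 610 and 562 bp in female and male Dicer1S2D tumours, against 604 and 713 bp in female and male KrasLA1 tumours. After the division, 13 regions were narrower and 13 wider in both Dicer1S2D tumours (16.9% each, against 10.8% narrower and 16.9% wider of all). Of the 19 Foxp1 regions, 6 were narrower and 1 wider on this scale. The start regions of Foxo1 and Foxj2 were narrower on both scales.

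**Figure D5:**
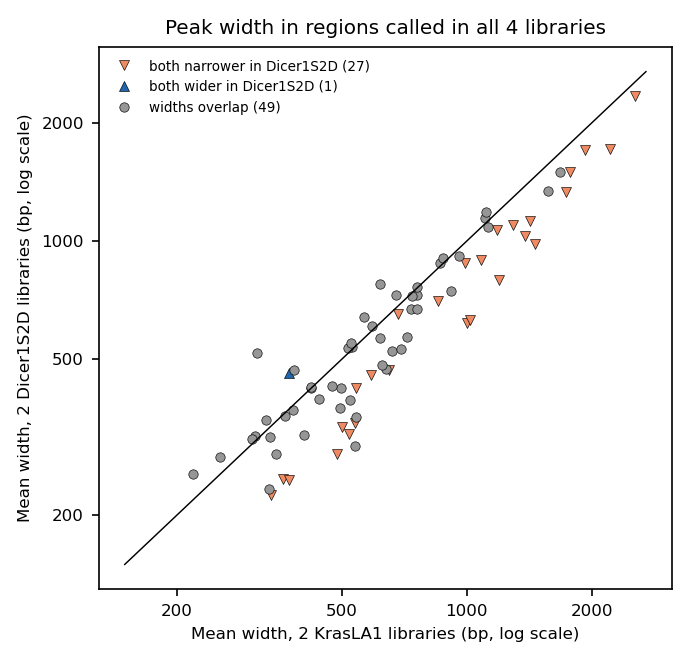
Mean peak width in Dicer1S2D tumours (y axis, bp, log scale) against that in KrasLA1 tumours (x axis, bp, log scale) for the 77 forkhead regions open in all 4 libraries; the line marks equal widths. Points for which both Dicer1S2D peaks are narrower (27) or wider (1) than both KrasLA1 peaks are marked.

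Other transcription factor families were counted in the same way. The share of regions called in all 4 libraries was 49.4% for forkhead genes, 39.1% for 18 SOX genes, 46.9% for 16 KLF genes, 61.1% for 5 GATA genes and 22.2% for 12 T-box genes, against 46.9% for all autosomal protein-coding genes. An end was open in all 4 libraries for 16 of 37 forkhead genes, 8 of 18 SOX, 13 of 16 KLF, 2 of 5 GATA and 2 of 12 T-box genes, and for 56.6% of all genes. Lost regions numbered 1 of 156 at forkhead genes, 0 of 64 at SOX, 2 of 64 at KLF, 1 of 18 at GATA and 4 of 18 at T-box genes, and gained ones 0, 1, 0, 0 and 0; of the regions at all genes 1.43% were lost and 0.53% gained. These shares are descriptions, and whether the families differ was not tested.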

How the data were processed

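Group, replicate and sex of the 4 tumour libraries, 2 per genotype, came from the labels. The deposited table holds 5 tracks of intervals made by the authors in mm10, 4 of peaks per library and 1 of merged regions, per the file headers; these coordinates and track names are the only values in it, with no count, score or p-value, so the depth and precision of each library are unknown. Tools listed in the submitters' processing notes are deepTools 3.5.1, MACS3 3.0.0 and BWA 0.7.12. Not given in the sources used here are the number of tumours in each sample, what each tool was used for, the cut-off for a peak, and whether reads were filtered or shifted for the transposase. 0 columns belonged to other samples.

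Merging the peaks returned the 61972 deposited merged regions. A library called a region if a peak overlapped it by 1 bp or more. A region within 10 kb of a gene in the RefSeq table of GRCm38.p6, the assembly of mm10, was counted for it. Strand and starts came from the RefSeq promoter table where it lists the gene; windows of 250 bases before the start were used. Group means were compared by exact two-sided permutation tests over libraries (Python 3.11.15, numpy 2.4.6, scipy 1.17.1); the counting was tested on simulated data. Replicates of a group differ in sex, and p-values measure the spread between these samples only.

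The members, lists and tests were chosen with earlier results of these data known, and the comparison of peak widths and its scaling were added after seeing the data. Values in full were given for genes with a gained or lost region, the 8 with most regions, the 5 with the widest region and 12 genes chosen by name; a few items that enter the counts are not reported here by name. Alternatives changed the peaks used, the overlap, the window, the libraries and the pairing.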

Additional observations from a re-analysis of the deposited data

Results flagged for a closer look

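For the results below the female Dicer1S2D tumour was above the female KrasLA1 tumour and the male Dicer1S2D tumour below the male KrasLA1 tumour. With 1 library per sex and genotype, whether the sexes differ was not tested. The number of peaks per library moved the same way: 50282 and 34767 in female and male Dicer1S2D tumours, against 41621 and 44654 in female and male KrasLA1 tumours, and its part in these values was not tested.

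The female difference less the male difference was 50 regions over all forkhead loci, from 21 in females and -29 in males. In length covered it was 35.2 kb, from 5.67 kb in females and -29.5 kb in males. By gene it was 15 regions at Foxn3, from 8 and -7, 8 at Foxp1, from 2 and -6, and 5 at Foxj3, from 3 and -2. It was 3 regions each at Foxf1 and Foxf2, from 2 and -1, and 2 regions each at Foxc1, Foxe1, Foxo6, Foxn4 and Foxn1, from 1 and -1.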

How the results depend on the processing

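The 16 forkhead genes with an end or start open in every library stayed within 1.5 times under all 13 alternatives (16 to 18 when a library was left out), and the difference in base pairs covered, -11920.5 bp, kept its sign in all 12 (-23698.5 to -142.5 when a library was left out). The difference of -4 regions per library turned to 9 without the male Dicer1S2D library and to 8.5 without the male KrasLA1 library, in a range of -17 to 9. Gained regions, 0, became 3 with equal numbers of widest peaks and 2 with a 50 kb window, and 2 to 13 when a library was left out, which asks for fewer libraries. Lost regions, 1, became 4 with the widest 75% of peaks, 3 with equal numbers of widest peaks, 2 with peaks of at least 200 bp, 4 with at least 50% of a region covered, 4 with a 50 kb window, and 4 to 20 when a library was left out. Genes with no region, 9, became 14 with the widest 75% of peaks and 3 with a 50 kb window (9 to 11 when a library was left out). Regions with wider Dicer1S2D peaks, 1, and with narrower ones, 27, both became 13 when widths were divided by library medians; the wider ones became 6 with a 50 kb window. They became 3 to 21 and 32 to 60 when a library was left out. Beyond the construction of the alternatives, the cause was not tested.

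With the replicate block, which compares libraries of the same number and so the same sex, the differences were -4 regions and -11920.5 bp (exact sign-flip p = 1 for each; 0.5 is the smallest possible). The calls of same-numbered libraries deviated together with a correlation of 0.15 over all autosomal regions, but the labels do not say that a number marks a shared litter or day. The unknown depth limits every absence of a peak.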
